A study of Rattus norvegicus with 8 samples.

Results

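The transcripts that carry thyroid hormone into cells, activate or inactivate it there and bind it in the cytosol were examined in extraocular muscles, which rotate the eyeball. The set held 9 genes: the transporters Slc16a10, Slc7a5, Slc7a8, Slc3a2 and Slco1c1, the deiodinases Dio1, Dio2 and Dio3, and Crym, which encodes mu-crystallin. A probe set, the group of short oligonucleotides that reads 1 transcript on an Affymetrix array, was taken if the platform annotation gave it exactly 1 of these symbols. Each gene had 1 probe set, so the set comprised 9 of 31042 probe sets. No probe set was left out for a dim signal.

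Total RNA came from 8 adult Sprague-Dawley rats with an initial body weight of 200 ± 40 g, with 1 array per rat. The 4 hyperthyroid rats had received 25 µg of triiodothyronine (T3, the hormone's active form) for each 100 g of body weight into the abdomen every 2 days for 6 weeks, and were killed 24 hours after the last dose. The 4 control rats were untreated, with no sham injection mentioned. Array numbers follow the sample titles. Per-array values are always given in the order 1, 2, 3, 5 for hyperthyroid and 7, 8, 9, 11 for control rats. The whole muscles hold vessels, nerve, connective tissue and fat as well as fibres, so fewer cells of a type and less RNA per cell cannot be told apart.

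Thyroid hormone enters cells through membrane transporters and does not simply diffuse across. Inside, deiodinases remove iodine atoms: type 2 converts the prohormone thyroxine (T4) to T3, type 3 inactivates both hormones, and type 1 can do either. In skeletal muscle the balance of types 2 and 3 is known to set the local hormone level, and T3 itself is known to raise type 1 and type 3 transcripts and to lower type 2 activity in several tissues. Mu-crystallin binds T3 in the cytosol together with NADPH.

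The annotated start regions of the 3 members with the largest average log2 difference between hyperthyroid and control arrays are shown because T3 acts through receptors that bind DNA near their targets. Each window runs from 250 bases before to 50 bases after the annotated start in RefSeq, 5′ to 3′ on the gene's own strand. Capitals mark 3 motifs searched on both strands: the nuclear receptor half-site AGGTCA, the TATA box TATAAA and the GC box GGGCGG. None of the motifs overlapped in these windows.
Dio3, GRCr8 chr6:135106822-135107121, forward strand: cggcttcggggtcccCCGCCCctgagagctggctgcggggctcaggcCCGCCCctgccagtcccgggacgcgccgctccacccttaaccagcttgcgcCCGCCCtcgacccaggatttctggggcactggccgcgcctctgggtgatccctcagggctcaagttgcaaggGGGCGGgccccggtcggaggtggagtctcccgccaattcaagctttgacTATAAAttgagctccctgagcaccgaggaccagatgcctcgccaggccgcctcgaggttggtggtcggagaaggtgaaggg
Slc7a8, GRCr8 chr15:32212666-32212965, reverse strand: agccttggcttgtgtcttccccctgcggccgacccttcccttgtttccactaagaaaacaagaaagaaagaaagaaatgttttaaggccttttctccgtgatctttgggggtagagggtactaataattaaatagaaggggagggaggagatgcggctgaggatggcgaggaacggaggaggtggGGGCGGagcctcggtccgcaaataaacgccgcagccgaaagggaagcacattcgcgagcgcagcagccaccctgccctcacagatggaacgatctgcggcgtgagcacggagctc
Dio1, GRCr8 chr5:127319735-127320034, reverse strand: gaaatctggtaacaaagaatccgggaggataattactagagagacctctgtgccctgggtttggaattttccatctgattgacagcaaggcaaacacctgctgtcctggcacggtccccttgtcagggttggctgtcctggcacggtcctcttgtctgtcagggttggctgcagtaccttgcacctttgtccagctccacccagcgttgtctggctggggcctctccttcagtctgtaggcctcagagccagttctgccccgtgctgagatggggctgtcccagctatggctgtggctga
The Dio3 window held 1 TATA box, with its first base 31 bases before the start, and 4 GC boxes. The Slc7a8 window held 1 GC box, 65 bases before the start, and the Dio1 window none of the 3 motifs. A TATA box was present in 14.2% of 33469 RefSeq start windows of the same length, a GC box in 33.1% and the half-site in 16.2%. The half-site letters were in none of these 3 windows, which says only that they are absent from 300 bases. Among the other members, 1 half-site lay 241 bases before the Slc16a10 start and 1 lay 156 bases before 1 of 2 annotated Slc3a2 starts. Of the 9 members, 7 had a window in the table, the exceptions being Slco1c1 and Crym.

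Signals are in the linear units of the deposited table, in which every array had been scaled to the same trimmed mean of about 150.1. Levels of different genes are not compared, since probe sets differ in how strongly they respond. A probe set is called dim here when its geometric mean over the 8 arrays lies below 28.2, the level that separates the upper 60% of all probe sets from the rest. By that level 4 members were not dim (Slc7a5, Slc7a8, Slc3a2 and Crym) and 5 were dim (Slc16a10, Slco1c1, Dio1, Dio2 and Dio3). Detection calls were not used here, so a dim signal cannot be separated from background hybridisation.

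Groups were compared with limma fitted to all 31042 probe sets on log2 signal, and differences are hyperthyroid minus control. At a Benjamini-Hochberg adjusted p under 0.05 limma called 0 probe sets (0%) and hence 0 of the 9 members. Without adjustment, 3077 probe sets had a p under 0.05 (9.91%), with 1763 higher (5.68%) and 1314 lower (4.23%). Of the members, 2 were higher at that level (Dio3 and Slc7a8) and 0 lower. With median centring the split of probe sets was 1077 higher and 2031 lower. That scaling moved the median of all differences by 0.12, from 0.07 to -0.05. The difference was above 0 for 7 of 9 members, against 55.2% of all probe sets, and the median of the members was 0.44. With median centring or quantile normalization 5 of 9 were above 0, since Slc7a5 and Slco1c1 turned from 0.04 and 0.01 to below 0. It was also 5 of 9 with the Gapdh ratio, an RNA quality measure, as a covariate and without control 8.

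Some arrays stood apart. Hyperthyroid 5 had a signal of 4.17 for Myh13, the myosin heavy chain that defines extraocular muscle, against 5430 to 9340 on the other 7 arrays, while Acta1 and Ckm, general muscle genes, were at 33901 and 26322 on it and the slow myosin gene Myh7 at 13031, against 1795 to 4097 elsewhere. Summed markers of adipocytes (6384 against 875 to 3078), leukocytes (4525 against 1240 to 2504) and fibroblasts (28526 against 9093 to 22415) were highest on this array. The fibroblast sum followed Col1a1, Col1a2 and Dcn, while Lum (931) and Pdgfra (604) were lowest of all arrays on it. Summed markers of epithelium (19.4 against 110 to 913), neurons (81.0 against 141 to 987) and Schwann cells (3043 against 6186 to 13717) were also lowest there. Single exceptions were S100b (614, against 334 on hyperthyroid 2), Syt1 (24.6, against 3.51 on control 9) and Rbfox3 (7.17, against 2.03 on control 8). The other measured markers of these lists were lowest on hyperthyroid 5. The summed signal of 7 measured markers of central glia and myelin was 1446 on hyperthyroid 5 and 2360 on hyperthyroid 2, whereas the remaining hyperthyroid arrays had 12350 and 14141 and the controls 8990 to 18062. Aqp4 gave 1333 of the sum on hyperthyroid 5 and 1213 of that on hyperthyroid 2. Relative to the control mean, the mean log2 signal of the 7 markers was -5.29 on hyperthyroid 5 and -3.45 on hyperthyroid 2. Fits without these arrays are therefore given for the members and for some of the named list genes. Without hyperthyroid 5, limma called 71 probe sets (0.229%) at an adjusted p under 0.05, of which 0 were members. Sex is not given in the labels. Hyperthyroid 1 and control 11 had more Xist than Eif2s3y signal, the reverse of the other 6 arrays, so each group held 1 array with a female call. Gapdh signal at the 3 prime end divided by that at the 5 prime end, which increases as RNA is degraded, had hyperthyroid values of 3.91, 4.40, 2.18 and 1.44 and control values of 1.67 to 1.97. The mean Gapdh ratios were 2.98 ± 1.40 and 1.77 ± 0.136 (SD, n = 4 each), with a two-sided exact permutation p of 0.229, the smallest possible being 0.0286. The same ratio for Actb was 5.53, 6.41, 4.41 and 3.33 on hyperthyroid and 2.97 to 3.72 on control arrays. Its means were 4.92 ± 1.34 and 3.48 ± 0.344 (SD, n = 4 each), with a two-sided exact permutation p of 0.114. By both ratios hyperthyroid 1, 2 and 3 were above every control.

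**Figure D1:**
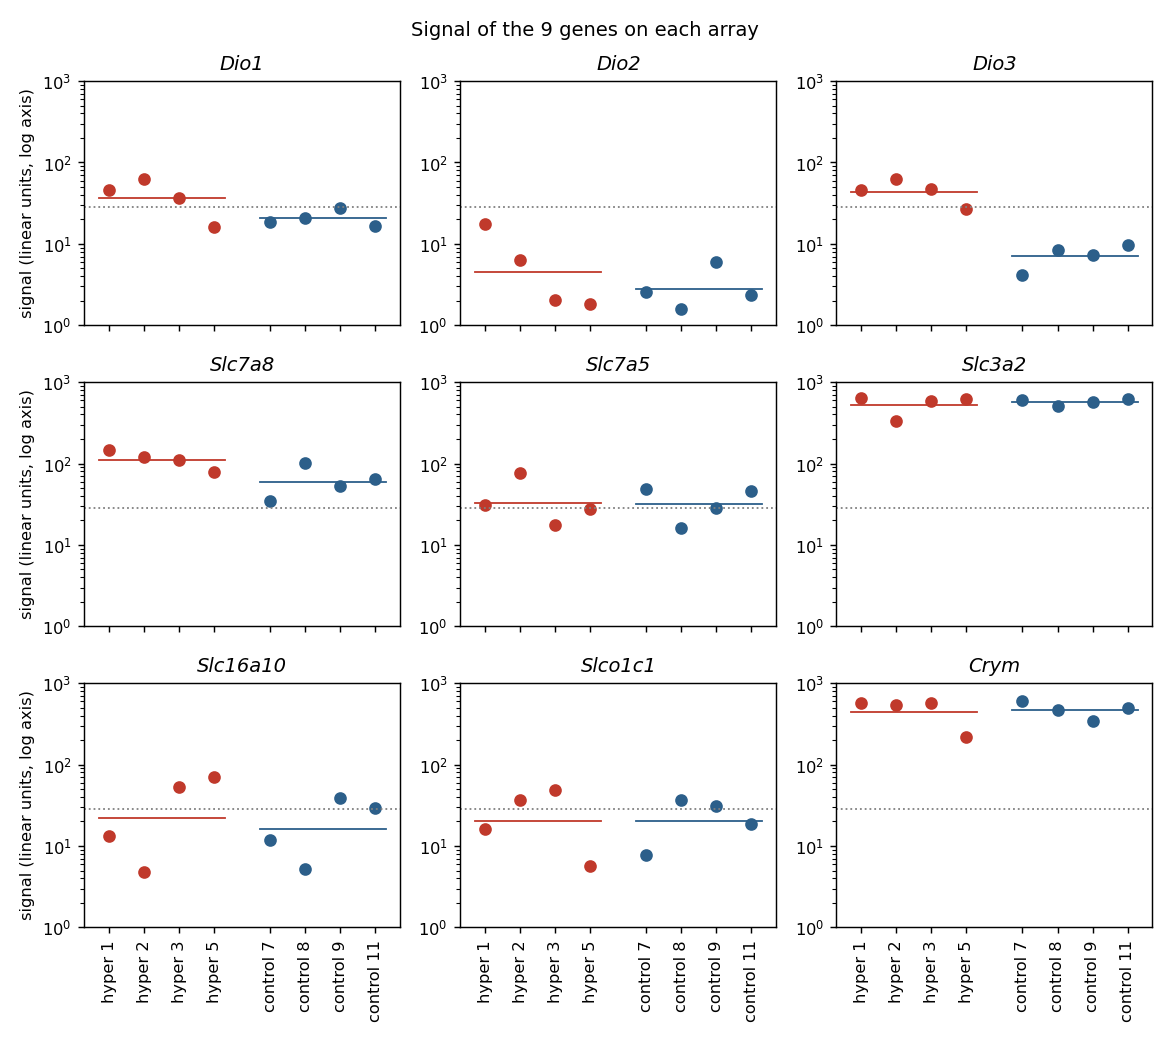
Signal of each of the 9 genes on each array (points; red hyperthyroid, blue control), on a log axis of linear signal units. Horizontal lines are the geometric mean of each group and the dotted line is the level of 28.2 below which a probe set is called dim. The Dio3 points of the groups do not overlap (26.7 to 62.5 against 4.11 to 9.69), while those of the other 8 genes do.

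Dio3, the deiodinase that inactivates T4 and T3, showed the largest difference of the set. Its hyperthyroid signals were 46.0, 62.5, 47.8 and 26.7, and its control signals were 4.11, 8.41, 7.32 and 9.69. All 4 hyperthyroid arrays thus lay above all 4 controls, and the lowest hyperthyroid value was 2.76 times the highest control value. The group means were 45.8 ± 14.7 and 7.38 ± 2.39 (SD, n = 4 each). The log2 difference was 2.64 ± 0.75 (SE), a 6.22-fold ratio with a 95% interval from 2.06 to 18.8 on this scale. Because the control signals cannot be separated from background, the fold depends on how low signals are treated: it was 2.74 with a floor of 16 and 1.95 with 32 added. The unadjusted p in limma was 0.00320 and the adjusted p 0.296, so the gene did not pass over all probe sets.

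Of all probe sets, 3.69% had every hyperthyroid array above every control, and of the 12417 dim probe sets 2.75% did. The p of Dio3 was among the lowest 1.05% of the table. Dio3 was dim by its mean, and its signals crossed the level of 28.2 on hyperthyroid 1, 2 and 3 only. With 32 added to every signal before log2 the difference was 0.96 ± 0.23 (adjusted p = 0.225), and with all signals below 16 set to 16 it was 1.45 ± 0.26 (adjusted p = 0.150).

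The difference in Dio3 was also measured without the arrays that stood apart. It was 2.88 ± 0.89 without hyperthyroid 5, 2.74 ± 1.11 without hyperthyroid 2 and 5, and 2.77 ± 0.92 on the 6 arrays with a male call. With the Gapdh ratio as a covariate it was 2.34 ± 0.95. Among the 4 hyperthyroid arrays the value on hyperthyroid 5 was the lowest, at 1.93 log2 units above the control mean, against 2.71, 3.15 and 2.76 on hyperthyroid 1, 2 and 3. Of the arrays low in glial markers, hyperthyroid 5 thus had the lowest and hyperthyroid 2 the highest Dio3 signal of the group. The Gapdh ratio of the group was also lowest on hyperthyroid 5 (1.44) and highest on hyperthyroid 2 (4.40). Between hyperthyroid 1 and 3 the order of the ratio was the reverse of that of Dio3. The part of cell composition in the Dio3 values was not tested, and that of the Gapdh ratio not beyond the covariate.

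Dio1, the type 1 deiodinase, had hyperthyroid signals of 45.7, 63.3, 37.1 and 16.1. The controls were at 18.8, 21.0, 28.0 and 16.7. Hyperthyroid 1, 2 and 3 lay above every control and hyperthyroid 5 below every control, so the groups overlapped. The means were 40.6 ± 19.6 and 21.1 ± 4.89 (SD, n = 4 each), and the log2 difference was 0.81 ± 0.64 (SE; unadjusted p = 0.229 and adjusted p = 0.702 in limma). Without hyperthyroid 5 it was 1.20 ± 0.67 (unadjusted p = 0.0941 and adjusted p = 0.504 in limma). With the Gapdh ratio as a covariate it was 0.17 ± 0.76. The Gapdh ratio was above every control on the same 3 arrays on which Dio1 was, and its part in the Dio1 values was otherwise not tested.

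Dio2, the deiodinase that makes T3 from T4, was dim on every array. Its signals were 17.8, 6.28, 2.07 and 1.81 in hyperthyroid and 2.56, 1.59, 6.01 and 2.38 in control rats. The groups overlapped and no array reached the level of 28.2. The log2 difference of 0.71 had an SE of 0.92 (unadjusted p = 0.454 in limma), and its 95% interval ran from -1.26 to 2.68. Without hyperthyroid 1 it was 0.05, so the average difference rested on that array.

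Taking the deiodinases as a group, all 3 were dim, all 3 had a difference above 0 and 1 had no overlap between groups, where 2.75% of dim probe sets had none with hyperthyroid higher. With the Gapdh ratio as a covariate Dio2 was at -0.35 and Dio1 at 0.17. Their median difference was 0.81, against 0.07 for all probe sets. Among dim probe sets, 59.2% had a difference above 0.

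Slc7a8, which encodes the amino acid transporter LAT2 that also moves thyroid hormones, was the transporter with the largest difference. Its signals were 147, 120, 110 and 78.8 in hyperthyroid and 34.2, 102, 52.3 and 64.8 in control rats. Hyperthyroid 1, 2 and 3 lay above every control, and hyperthyroid 5 lay below control 8 only. The means were 114 ± 28.1 and 63.4 ± 28.9 (SD, n = 4 each). The log2 difference was 0.92 ± 0.37 (SE), a 1.89-fold ratio with a 95% interval from 1.09 to 3.28. The unadjusted p in limma was 0.0257 and the adjusted p 0.444, so this gene did not pass either.

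The Slc7a8 difference was 1.09 ± 0.39 without hyperthyroid 5 (adjusted p = 0.260 in limma), 1.11 ± 0.45 without hyperthyroid 2 and 5, and 0.84 ± 0.46 on the arrays with a male call (unadjusted p = 0.0929 in limma). With the Gapdh ratio as a covariate it was 0.72 ± 0.44 (unadjusted p = 0.118 in limma). The arrays on which Slc7a8 lay above every control were the same 3 on which the Gapdh ratio did, and its part in the Slc7a8 values was otherwise not tested. It leaned on control 7, the lowest array: without it the difference was 0.66 ± 0.35 (unadjusted p = 0.0783 in limma), and without control 8, the highest control, it was 1.19. In 4 of the 8 fits that left out 1 array the unadjusted p in limma was under 0.05. With hyperthyroid 5 left out, 3 members had no overlap between groups (Dio3, Slc7a8 and Dio1), all with hyperthyroid higher, where 7.28% of all probe sets did.

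**Figure D2:**
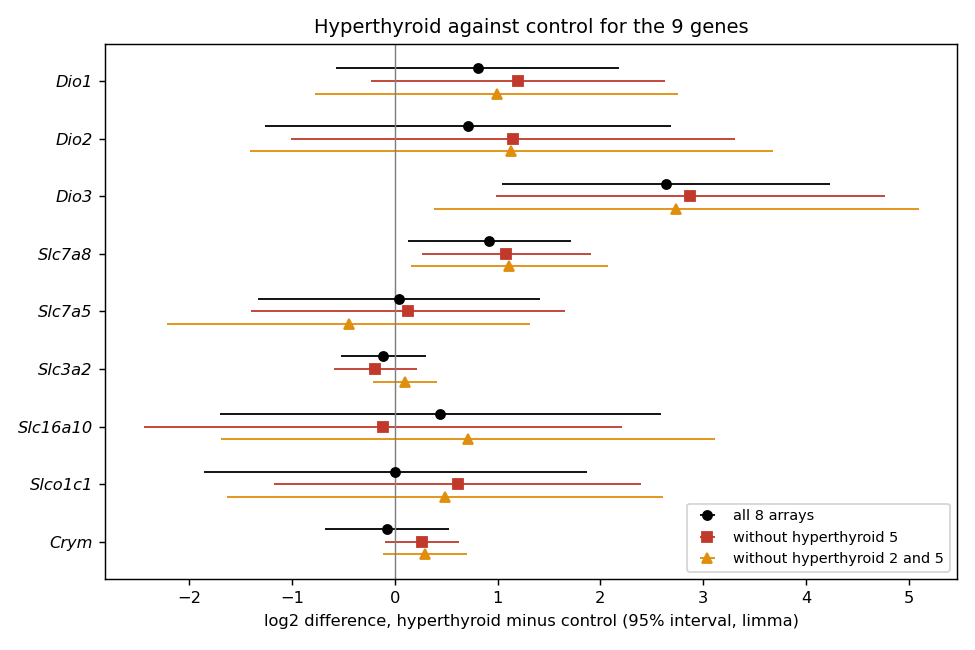
Log2 difference of each gene, hyperthyroid minus control, with its 95% interval from limma, on all 8 arrays (black), without hyperthyroid 5 (red) and without hyperthyroid 2 and 5 (orange). The intervals of Dio3 and Slc7a8 lie above 0 in all 3 fits, at 1.04 to 4.23 and 0.13 to 1.71 on all 8 arrays, before any adjustment for the number of probe sets.

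Slc7a8 and Slc7a5 each pair with the heavy chain encoded by Slc3a2 (4F2hc, or CD98), which carries them to the cell surface. Slc3a2 had signals of 642, 337, 584 and 619 in hyperthyroid and 602, 510, 564 and 616 in control rats. Hyperthyroid 2 was below all other arrays and the remaining hyperthyroid arrays lay within or just above the control range. The difference was -0.11 ± 0.19 (SE; adjusted p = 0.878 in limma), with a 95% interval from -0.53 to 0.30, and it was 0.10 without hyperthyroid 2. The interval corresponds to ratios of 0.695 to 1.23, which makes this the most tightly bounded of the 9 genes.

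Slc7a5, which encodes the related transporter LAT1, had signals of 31.2, 77.3, 17.5 and 27.5 in hyperthyroid and 49.2, 16.2, 28.5 and 45.6 in control rats. Only hyperthyroid 2 left the control range. The difference of 0.04 ± 0.64 (SE) had a 95% interval of -1.33 to 1.42, and its sign turned with quantile normalization (-0.09) and median centring (-0.08). On hyperthyroid 2 the heavy chain Slc3a2 was lowest and the light chain Slc7a5 highest of all arrays.

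Slc16a10, the aromatic amino acid transporter MCT10, also carries T3. Its signals were 13.4, 4.75, 52.8 and 70.7 in hyperthyroid and 11.8, 5.20, 38.8 and 29.2 in control rats. The control range lay inside the hyperthyroid range, with 2 hyperthyroid arrays above every control and 1 below every control. The highest array was 14.9 times the lowest. The difference was 0.44 ± 1.00 (SE; adjusted p = 0.908 in limma) and turned to -0.11 without hyperthyroid 5, which held the highest value.

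Slco1c1, the organic anion transporter OATP1C1, prefers T4 and is best known from the endothelium of the blood-brain barrier and from astrocytes. Its signals were 16.3, 36.5, 48.7 and 5.73 in hyperthyroid and 7.77, 36.5, 30.6 and 18.9 in control rats. The difference was 0.01 ± 0.87 (SE), with a 95% interval of -1.85 to 1.87, and its sign turned with quantile normalization (-0.22) and median centring (-0.11). Hyperthyroid 5 held the lowest value and was also the array with the lowest summed signal of glial markers, while hyperthyroid 2, the other array low in these, had a Slco1c1 signal near the top. The 5 markers of barrier endothelium had summed signals of 349 to 683 on hyperthyroid and 468 to 682 on control arrays, with Abcb1a below 1 on hyperthyroid 5. The part of either cell type in the Slco1c1 values was not tested.

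Crym had signals of 575, 541, 571 and 217 in hyperthyroid and 603, 468, 343 and 494 in control rats. Hyperthyroid 5 was the lowest of all arrays, and the other hyperthyroid arrays lay inside the control range. The means were 476 ± 174 and 477 ± 107 (SD, n = 4 each), with a log2 difference of -0.08 ± 0.28 (SE; adjusted p = 0.947 in limma). Without hyperthyroid 5 the difference was 0.27 ± 0.17 (adjusted p = 0.567 in limma), and the sign also turned without control 7 (0.04) and with array weights (0.10). On hyperthyroid 5 the low Crym signal went with the low Myh13 signal, a relation that was not tested.

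The profiles most alike were sought for the 4 members that were not dim, among the brightest probe sets of 10445 other genes with at least that level. Likeness was the root mean square difference of log2 signals over the 8 arrays, each gene centred on its own mean. Closest to Slc3a2 were Tmem50a (0.077) and Cyb5a (0.098), both lowest on hyperthyroid 2, at 360 and 369. Closest to Crym were Coq8b (0.143) and Basp1 (0.143), both lowest on hyperthyroid 5, at 43.3 and 41.5. Closest to Slc7a8 were Chd3 (0.224) and Atosb (0.233), both lowest on control 7, at 35.4 and 41.1. Closest to Slc7a5 were Isg20 (0.244) and Tyw1 (0.289). These are descriptions of 8 arrays, and single arrays shaped each profile.

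Other genes that handle thyroid hormone were read from 8 lists, of which 61 of 70 symbols had a probe set. Of the 61 genes, 0 had an adjusted p under 0.05 in limma, where 0% of all 14217 genes did. At an unadjusted p under 0.05, 4 were higher and 0 lower, against 5.82% higher and 5.16% lower of all genes. The median difference of the 61 genes was 0.06, and that of all genes 0.04.

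Among 13 other transporters, 6 differences were above 0 and 7 below. Slc43a2, an amino acid transporter (LAT4), had the smallest p at 1.04 ± 0.36 (SE), with mean signals of 139 ± 64.4 under T3 and 65.6 ± 22.7 without it (SD, n = 4 each; unadjusted p = 0.0124 and adjusted p = 0.387 in limma). Without hyperthyroid 5, which held the highest signal, it was at 0.76 and its unadjusted p in limma was 0.0565. A dimmer Slc43a2 probe set was at -1.42 ± 1.06, the opposite sign. The related Slc43a1 was at 0.58 ± 0.34. Of the 5 receptor and partner genes, Thrb was at 0.49 ± 0.18 and Rxra, a dim probe set, at 0.65 ± 0.84 (0.34 without hyperthyroid 5).

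The deiodinase turnover list holds genes linked to the attachment of ubiquitin to type 2 deiodinase or to its removal. Of 10 genes, 2 had an unadjusted p under 0.05 in limma, both higher, where 5.82% of all genes were higher at that p. A count of this size in so short a list is not read as a result about the list. These were the deubiquitinases Usp20 and Usp33, which are known to reactivate the enzyme. Usp20 was at 0.55 ± 0.19 (SE), from 179 ± 21.6 in control to 263 ± 40.6 in hyperthyroid arrays (SD, n = 4 each; unadjusted p = 0.0110 and adjusted p = 0.378 in limma), and its dimmer probe sets were at 1.80 and 0.86. Usp33 was at 0.34 ± 0.14, with an adjusted p of 0.464 in limma.

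The 8 genes of selenoprotein synthesis, which deiodinases need because their active site holds selenocysteine, had a median difference of 0.10 and 0 with an unadjusted p under 0.05 in limma. Rpl30 was at 0.71 ± 0.46 (unadjusted p = 0.149 in limma) and Sepsecs at 0.22 ± 0.20. The Rpl30 groups did not overlap, the lowest hyperthyroid signal being 41.7 and the highest control signal 39.8. Of all 14217 genes, 573 had hyperthyroid higher with no overlap, and of the 61 listed genes 1 did. Among 3 serum carriers Ttr was at 0.61 ± 0.55 and Serpina7, a dim probe set, at -0.81 ± 1.02 (-1.40 without hyperthyroid 5). The 6 conjugating enzymes were mostly dim (1 of 6 was not), with Sult2b1 at 1.27 ± 1.06 and Ugt2b1 at 1.02 ± 0.96 (0.45 without hyperthyroid 5). Of the 12 amino acid transport and response genes, 6 were above and 6 below 0, with Slc7a10 at 1.75 ± 0.89 and Slc7a11 at -1.67 ± 1.17. Without hyperthyroid 5, where its signal was 1.40, Slc7a11 was at -0.37. Of 4 other T3-binding or NADPH-linked proteins, P4hb was at -0.28 ± 0.14 and Pdia2, a dim probe set, at 1.59 ± 1.01 (2.04 without hyperthyroid 5).

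**Figure D3:**
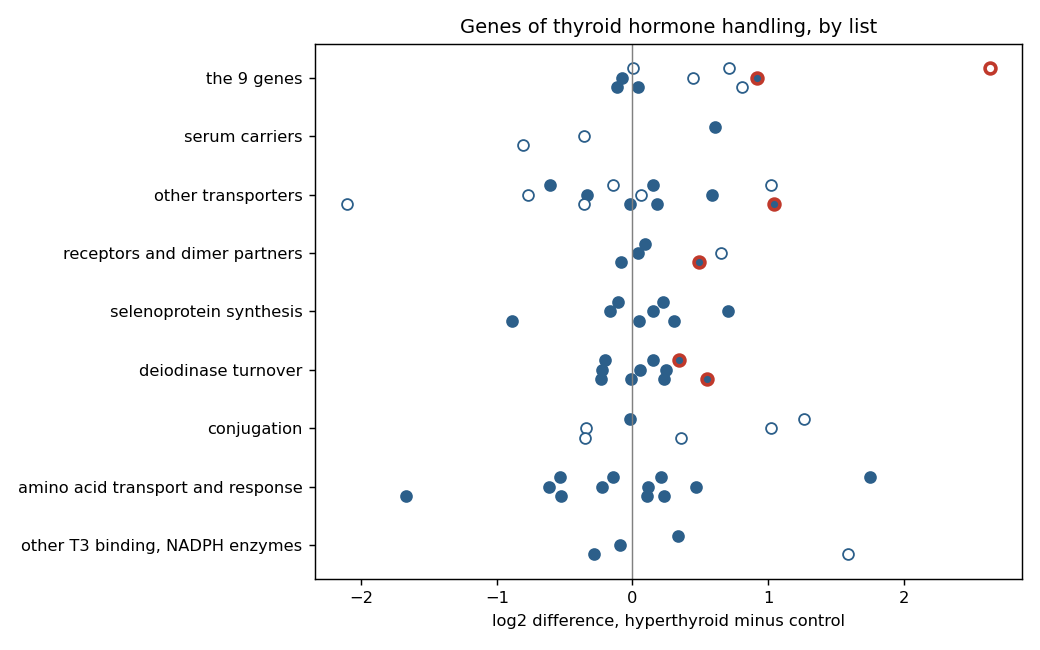
Log2 difference, hyperthyroid minus control, of the 9 genes and of 61 further genes by list (points; 1 probe set per gene, filled where not dim and open where dim, red outline where the unadjusted p in limma is under 0.05). Dio3 is the open point farthest right, at 2.64, and the red outlines among the further genes mark Slc43a2, Thrb, Usp20 and Usp33.

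The 3 members with the largest average difference kept its sign under each way of processing that gave them a value. Some alternatives cannot move a difference and change only its p. These are the fit without a mean-variance trend, the robust fit, the filters and the sex call as a covariate. A floor of 16 also left Slc7a8 and Dio1 unchanged. Such alternatives do not test the sign, yet the counts below include them. Dio3 ranged from 0.96 to 2.88, with an unadjusted p under 0.05 in limma in all 19 alternatives in which it was tested and an adjusted p of 0.150 to 0.659. Slc7a8 ranged from 0.64 to 1.19, with an unadjusted p under 0.05 in 15 of 21 alternatives and an adjusted p of 0.260 to 0.728. Dio1 ranged from 0.17 to 1.20 and reached an unadjusted p under 0.05 in 0 of 19.

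**Figure D4:**
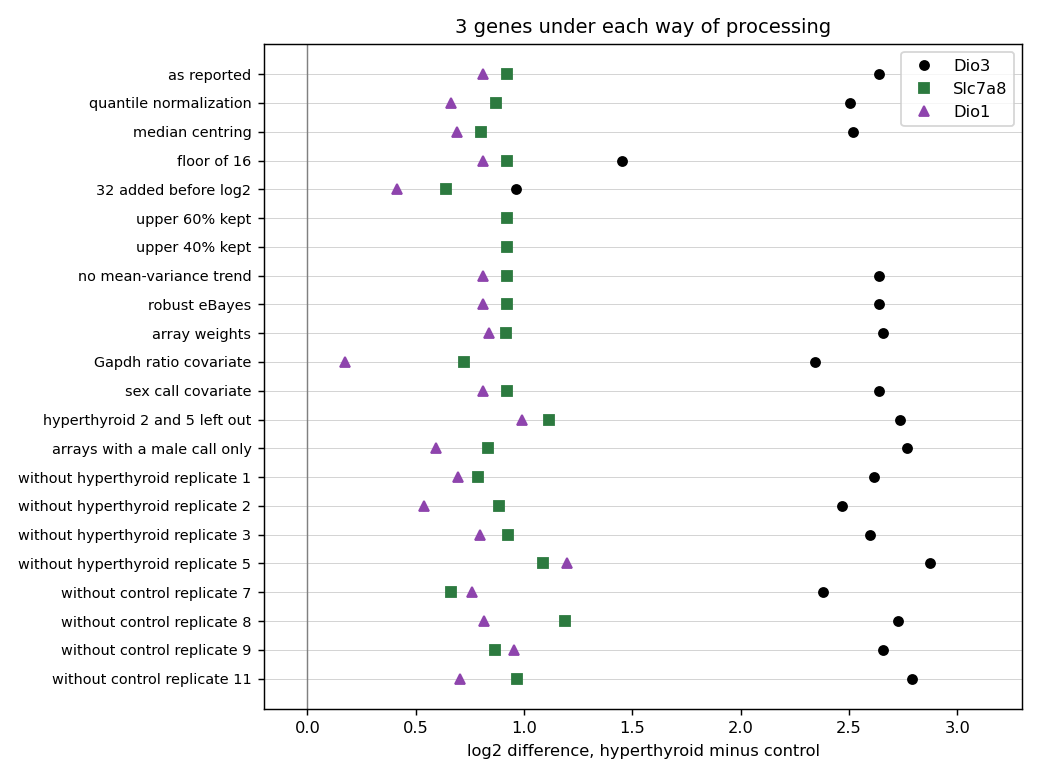
Log2 difference, hyperthyroid minus control, of Dio3, Slc7a8 and Dio1 (points) under each way of processing (rows). Dio3 is smallest where low signals are raised (0.96 with 32 added and 1.45 with a floor of 16), and Dio1 is smallest with the Gapdh ratio as a covariate (0.17).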

How the data were processed

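Total RNA of 8 rats was hybridised to Affymetrix rat arrays. The authors deposited a linear intensity for every probe set on every array. GCOS, the array maker's software, is named in the submitters' processing notes without a version. A trimmed mean over each array (2% at each end) was 150.1 on all 8, so the authors had scaled them, and medians ran from 47.8 to 58.5. Filters and detection calls are not given in the sources used here. Of 31099 probe sets, 57 manufacturer's controls were left out. Values were set to at least 1 (1663 values, 0.670%, were lower) and taken to log2. Testing used R 4.3.3 and limma 3.58.1 (lmFit and trended eBayes, two-sided, Benjamini-Hochberg over 31042 probe sets). No filter on dim probe sets was used, since the gene set keeps them. A gene with several probe sets in a list was read from its brightest one. Symbols came from the platform annotation, and all 9 matched RefSeq by gene identifier.

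The text names every member, up to 2 genes of each list by smallest p, the quality genes and the closest profiles. Cell type markers and the neighbours of Dio3 were named outside that rule. The members, lists and tests were chosen with earlier results of these data known. The number of arrays limits the precision. In simulated data of 4 against 4 arrays the fit recovered 10% of 2-fold and 35% of 4-fold changes, with 0 false calls. A count of 0 calls therefore does not show that no transcript changed. Each array is a separate rat, per the labels. Alternatives were other scalings, floors, filters, variance models, covariates and left-out arrays.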

Additional observations from a re-analysis of the deposited data

Results flagged for a closer look

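Among 54 groups of 4 values examined (members, named list genes and array measures), 5 had a highest or lowest array whose gap to its neighbour was over 0.829 of the group's range, where chance gives about 1 in 20. Slc3a2 on hyperthyroid 2 was 337 against 584 to 642 on the other hyperthyroid arrays, a gap of 0.853 of the range of log2 signals. Crym on hyperthyroid 5 was 217 against 541 to 575, a gap of 0.938. In the control group, the lowest array stood apart for Ttr (0.930), for Serpina7 (0.870) and for the 3 prime to 5 prime ratio of Actb (0.851).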

How the results depend on the processing

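The count of probe sets past an adjusted p of 0.05 in limma was 0 on all 8 arrays, 2 without a mean-variance trend, 4 with a robust fit, 6 with array weights, 112 with the Gapdh ratio as a covariate, 43 without hyperthyroid 2 and 5, and 7 at an adjusted p under 0.1. Leaving out 1 array gave 0 to 71, the latter without hyperthyroid 5. No member and no listed gene was among the calls under any of these. Signs turned in 26 of 178 alternative values of the members, none of them of Dio3, Slc7a8 or Dio1. The 178 include the alternatives named above that cannot move a difference. With quantile normalization and median centring, Slc7a5 was at -0.094 and -0.077 and Slco1c1 at -0.22 and -0.11. With array weights Slc7a5 was at -0.065 and Crym at 0.10. With the Gapdh ratio as a covariate Slc7a5 was at -0.47, Slc3a2 at 0.080, Slco1c1 at -0.50 and Dio2 at -0.35. Without hyperthyroid 2 and 5, Slc7a5 was at -0.45, Slc3a2 at 0.10 and Crym at 0.29. On the 6 arrays with a male call, a set chosen after the arrays had been examined, Dio2 was at -0.019. Leaving out each array in turn gave -0.11 to 1.18 for Slc16a10, -0.37 to 0.34 for Slc7a5, -0.21 to 0.10 for Slc3a2, -0.45 to 0.61 for Slco1c1, 0.05 to 1.15 for Dio2, -0.23 to 0.27 for Crym, 0.54 to 1.20 for Dio1, 0.66 to 1.19 for Slc7a8 and 2.38 to 2.88 for Dio3. The filters left out the dim members, so no value was obtained for them there. No paired analysis was possible because the groups share no replicate number. The cause of these moves was not tested beyond the arrays named. The 5 dim members are limited by signal near the lower end of the scale.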

Other observations

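Dio3 lies in the imprinted region between Dlk1 and Ppp2r5c. Its 3 nearest measured neighbours on each side in RefSeq order were looked up after the Dio3 values had been seen, so no test is given. Dlk1, a transmembrane protein of fetal tissue and satellite cells, had signals of 81.1, 54.1, 38.0 and 8.82 in hyperthyroid and 1.99, 14.9, 15.1 and 35.4 in control rats. Hyperthyroid 1, 2 and 3 were above every control, as for 7.28% of all probe sets. Hyperthyroid 5 was within the control range, and the log2 difference of Dlk1 was 1.63 ± 0.99 (SE). The noncoding RNA Meg3, between Dlk1 and Dio3, was at 0.19 ± 0.38, with signals of 117 to 433 on hyperthyroid and 98.4 to 288 on control arrays. On the other side, Ppp2r5c was at -0.05 ± 0.17, LOC102547242 at -0.24 ± 0.40 and Dync1h1 at -0.003 ± 0.16. Beyond Dlk1, LOC102555774 was at 1.64 ± 0.75, with signals of 39.2, 42.9, 49.7 and 17.7 on hyperthyroid arrays and 6.56 to 21.8 on control arrays. As for Dlk1, hyperthyroid 1, 2 and 3 were above every control and hyperthyroid 5 was within the control range.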
